A study of Mus musculus with 7 samples.

Results

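The cells described here are aortic smooth muscle cells that carry transcripts of Rgs5, a regulator of G protein signalling. They were taken from 7 single-cell RNA libraries of mouse aorta made on the BD Rhapsody system, in which each transcript molecule is counted once by its unique molecular identifier (UMI). A barcode had to have at least 200 genes, at least 1500 UMIs and at most 25% mitochondrial UMIs. It then needed at least 1 UMI each of Myh11, Acta2 and Tagln, no UMI of Pdgfra, Ptprc or Pecam1, and no more than 1 of the 5 genes Chad, Sox9, Frzb, Enpp2 and Lamc3 detected. Of 76359 barcodes, 57390 passed the quality limits and 12836 passed this smooth muscle gate. Members were chosen by their own Rgs5 count: they were the 8054 gated cells with at least 2 Rgs5 UMIs, and the comparison cells were the 3637 gated cells with no Rgs5 UMI. The 1145 gated cells with exactly 1 Rgs5 UMI belonged to neither class. Rgs5 lies on chromosome 1, at 169655501 to 169695813 on the plus strand of GRCm38.

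Of the 7 libraries, 3 came from Slc38a2flox/flox mice (flox control 1 to 3) and 4 from Slc38a2 deltaEC mice (EC knockout 1 to 4), in which the amino acid transporter gene Slc38a2 is deleted in endothelial cells. All mice, the controls included, ate a high-salt diet for 3 weeks, so that no library shows the aorta on normal salt. The driver of the deletion, the deleted exons, and the age and sex of the mice are not given in the labels. Whether each library is from an animal of its own is not stated, so the p-values measure only the spread between these libraries. The cell type label reads "Goblet cells", a mucus-secreting epithelial type, which goes against the aortic tissue label and the smooth muscle transcripts described below.

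RGS proteins speed up the hydrolysis of GTP by G protein alpha subunits and so shorten the signal of G protein coupled receptors, among them those for angiotensin II, endothelin and noradrenaline. Rgs5 acts on the Gi and Gq classes and is best known as a marker of pericytes and of arterial smooth muscle. Smooth muscle of the aorta comes from several embryonic sources along its length, and adult cells keep part of the Hox code that marks position along the body axis, with low-numbered paralogue groups expressed from anterior levels on and high-numbered groups restricted to posterior levels.

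The members numbered 1445, 869 and 774 in flox control 1 to 3, and 1856, 1036, 2045 and 29 in EC knockout 1 to 4. The Rgs5-zero cells numbered 281, 551 and 595 in the controls, and 333, 780, 906 and 191 in the knockouts. EC knockout 4 thus stood apart with few members, whose UMIs summed to 131254. The members' summed UMIs in the other 6 libraries ranged from 2553853 to 11660569. Median UMIs per cell were close in the classes, at 2798 to 5280 in members of those 6 libraries and 2720 to 4944 in their Rgs5-zero cells.

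Within the members, Rgs5 itself had a median of 27, 15 and 17 UMIs per cell in the controls, and of 28.5, 18, 12 and 5 UMIs in the knockouts. The highest cell held 360 UMIs. Cells with 20 or more Rgs5 UMIs made up 37.5% to 60.1% of the members outside EC knockout 4, and 10.3% of the 29 members there. At the edge of the rule, 129, 82 and 79 control cells and 80, 72, 220 and 4 knockout cells had exactly 2 Rgs5 UMIs, while 209, 117 and 148 control cells and 128, 167, 362 and 14 knockout cells had exactly 1. Cells just inside and just outside had like depths, for example a median of 3972 UMIs at 2 Rgs5 UMIs and 4066 at 1 in flox control 1. These values follow from the rule and carry no test.

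**Figure D1:**
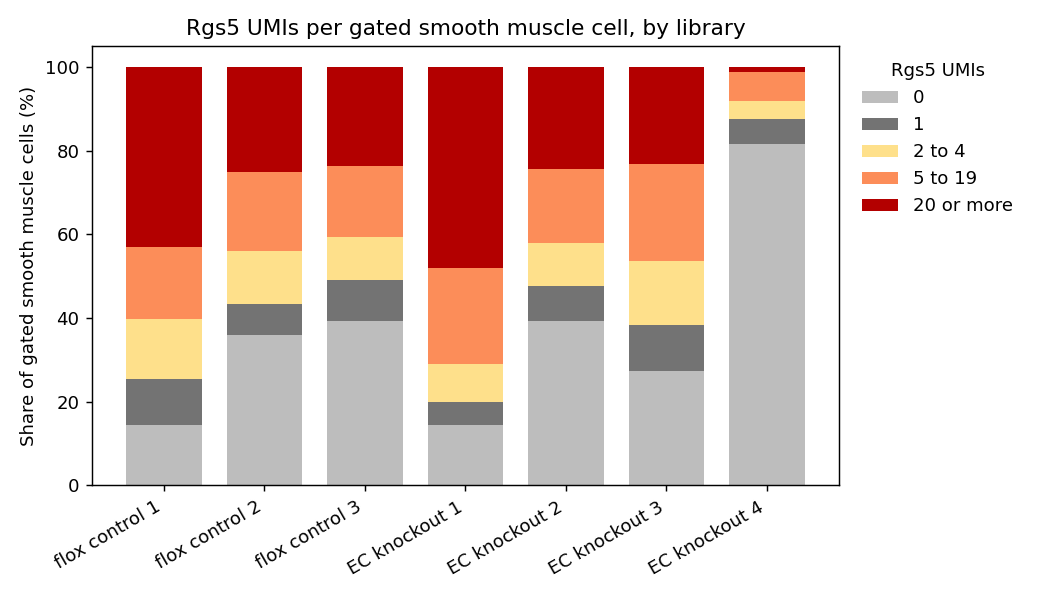
Share of gated smooth muscle cells (percent, y axis) with 0, 1, 2 to 4, 5 to 19, or 20 or more Rgs5 UMIs, in each of the 7 libraries (x axis). The members are the 3 upper classes, and EC knockout 4 has the fewest of them, 29 of 234 gated cells.

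Rgs5 UMIs in cells of other types were read as a background that includes free RNA. Doublets and expression in those cells were not told apart from it. In fibroblast-gate cells (past the same quality limits, with Pdgfra and Dcn and without Myh11, Ptprc or Pecam1), 17.6% had at least 2 Rgs5 UMIs in flox control 1, at a median depth of 5498 UMIs, against 0.11% to 3.64% in the other 6 libraries. In macrophage-gate cells (Ptprc, C1qa and C1qb detected, without Myh11, Pdgfra or Pecam1) the share was 11.2% in flox control 1, and 0% to 2.05% elsewhere. In endothelial-gate cells (Pecam1 and Cdh5 detected, without Ptprc, Pdgfra or Myh11) it was 13.2% in flox control 1 and 0% to 8.33% elsewhere. The endothelial gate held 24 to 258 cells per library. The members' share of gated cells was 74.7% in flox control 1, at a median depth of 3885 UMIs, above that background. Cells of flox control 1 with few Rgs5 UMIs cannot be told apart from cells that took up free RNA. Between 68 and 218 barcodes were shared by any 2 libraries, and 616 of the 8054 members (7.65%) had a barcode that also occurred in another library.

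The label was checked against its markers. Acta2, smooth muscle actin, stood at 10710 to 16888 unscaled CPM (of all the cells' UMIs, with no TMM factor) in members and 10327 to 15807 in Rgs5-zero cells, and Tagln at 6148 to 9159 against 5731 to 8390. Those genes, with Myh11, were used by the gate. Cnn1 (calponin) and Ppp1r14a (the myosin phosphatase inhibitor CPI-17) were not, and were found in 79.3% to 96.0% and 58.6% to 87.1% of the members across libraries. Neither differed from the Rgs5-zero cells past the test: Cnn1 had a log2 difference of 0.11 (SE 0.04, adjusted p = 0.192) and Ppp1r14a one of 0.05 (SE 0.05, adjusted p = 0.68). Rgs5, Acta2 and Tagln are in every member by the rule, so of the 5 markers these were the ones that could bear on the label.

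Slc38a2, the deleted gene, was read first in the cell type of the deletion. In endothelial-gate cells (Pecam1 and Cdh5 detected, without Ptprc, Pdgfra or Myh11) it stood at 309, 435 and 293 unscaled CPM in the controls and 215, 264, 359 and 284 in the knockouts, from 30 to 337 UMIs per library, and the groups overlapped. Where the counted part of the transcript lies relative to the deleted part is not given, so these values do not check the labels. In the members, where no deletion is labelled, Slc38a2 stood at 330, 318 and 452 CPM in the controls and 295, 329, 453 and 257 CPM in the knockouts, with a log2 difference of -0.09 (SE 0.19, adjusted p = 1.00).

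UMIs were summed per library over the members and over the Rgs5-zero cells, and the classes were compared within libraries with edgeR. The rule used Rgs5 and the gate genes, which were left out, and every other gene was free to differ. Of 11492 genes tested, 241 (2.1%) were higher and 534 (4.65%) lower in the members at an adjusted p under 0.05, together 6.74%. A gene needed enough UMIs in either class to be tested, so a gene near 0 in one class entered through the other, where it had to be high, and counts and medians over the tested genes of a list carry this. Levels below are CPM (counts per 1000000 UMIs) after scaling (TMM), given as the lowest, median and highest of the 7 libraries, and "rose" and "fell" mean higher or lower in members than in Rgs5-zero cells of the same libraries.

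The 12 largest rises among genes of at least 5 log2 CPM on average are given first. Bche (butyrylcholinesterase, a choline ester hydrolase; chromosome 3, 73635808 to 73708415) stood at 17.6, 68.4 and 86.1 CPM in members and 9.79, 12.6 and 29.5 CPM in Rgs5-zero cells. Its log2 rise was 2.07 (SE 0.14, adjusted p = 2.3e-10), and it was higher in the members of 7 of 7 libraries, and outside EC knockout 4 the classes did not overlap. Fn1, the matrix glycoprotein fibronectin, stood at 2084, 2628 and 3505 CPM against 1122, 1260 and 1471 CPM. Every member sum lay above every Rgs5-zero sum, and the rise was 1.06 (SE 0.07, adjusted p = 2.4e-10).

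Of the other leading rises, Tceal6 (log2 difference 1.20) was followed by Adamtsl3 (0.99), a secreted ADAMTS-like matrix protein, and Rbp4 (0.94), the retinol carrier of plasma. Gpsm2, a partner of Gi alpha subunits, rose by 0.93, from 21.3, 76.1 and 101 CPM in Rgs5-zero cells to 88.1, 151 and 178 CPM. Genes for sex steroid receptors stood among them. Esr1, estrogen receptor alpha, stood at 35.2, 54.3 and 65.3 CPM against 9.14, 24.8 and 41.03 CPM (0.90, SE 0.12), and Pgr, the progesterone receptor, at 69.4, 78.7 and 102 CPM against 13.7, 41.9 and 74.1 CPM (0.71, SE 0.10). Enpp1, which makes the calcification inhibitor pyrophosphate, rose by 0.82 without overlap between the classes, at 52.9 to 90.5 CPM against 27.4 to 52.3 CPM. The proteoglycan versican (Vcan, 0.77), Rab27b (0.73), a small GTPase of vesicle release, and the metalloprotease Adamts8 (0.71) completed the list.

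**Figure D2:**
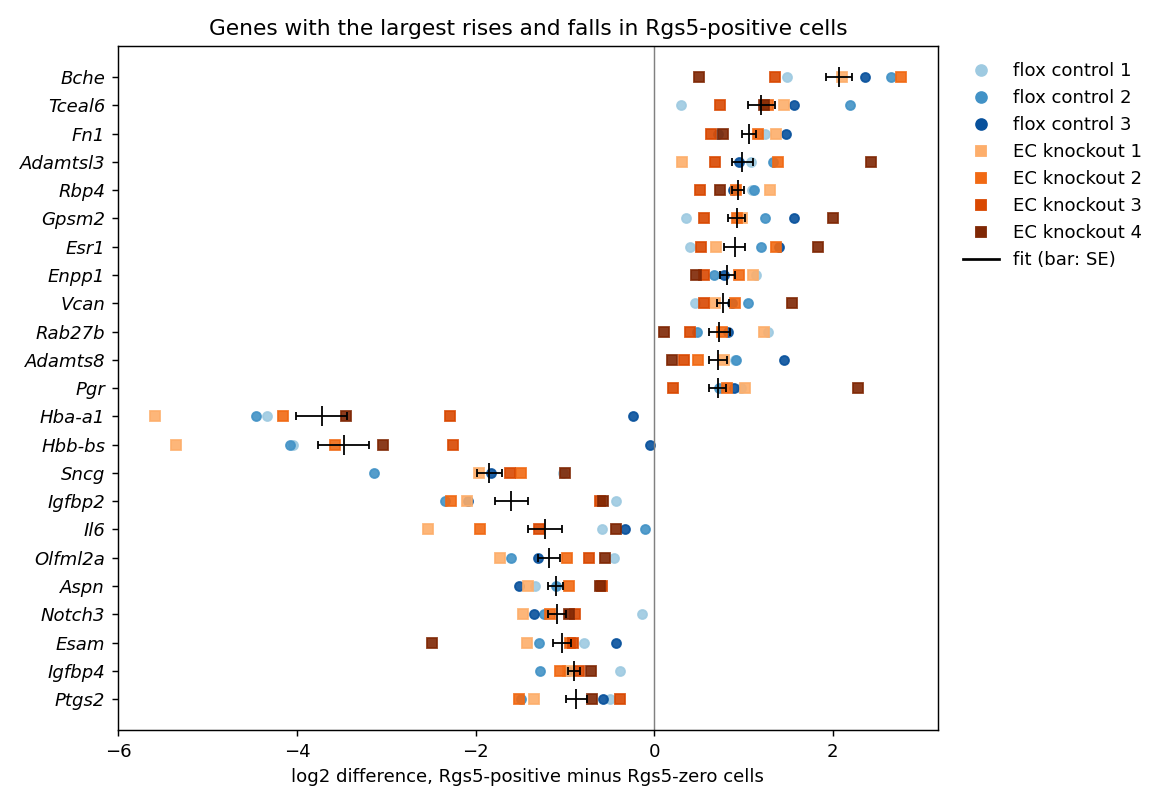
Log2 difference between members and Rgs5-zero cells (x axis) for the 12 genes with the largest rises and 11 of the 12 with the largest falls, in each of the 7 libraries (circles, flox control; squares, EC knockout), with the fitted value and its SE in black. All points of a gene lie on one side of 0, as the rule for naming required, and the spread between libraries is widest for the haemoglobin genes Hba-a1 and Hbb-bs.

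Hox genes of the high-numbered groups were higher in the members. In the list of positional and developmental genes, 11 of 37 tested members rose and 6 fell, against 2.1% and 4.65% of all genes, and the list's median was 0.00 beside 0.00 for all genes. With cells thinned to 1500 UMIs, 5 of 30 rose and 3 fell, and without EC knockout 3, 7 of 36 rose. Hoxc10 (chromosome 15, 102966796 to 102971893) stood at 53.4, 26.8 and 76.1 CPM in members of the controls and 52.8, 49.1, 19.4 and 0 CPM in those of the knockouts. In Rgs5-zero cells it was at 1.05, 1.96 and 2.79 CPM, and 0, 1.05, 0.78 and 6.09 CPM. The members exceeded every Rgs5-zero sum in 6 libraries, and EC knockout 4, with no UMI among its 29 members, went the other way. The fitted rise was 4.73 (SE 0.26, adjusted p = 7.1e-12).

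Hoxa10, on chromosome 6 and named here after its values were seen, rose by 4.67 (SE 0.29), from a highest level of 2.10 CPM in Rgs5-zero cells to 8.85 to 27.1 CPM in members of the 6 larger libraries. Hoxa9 rose by 2.63 and Hoxc9 by 2.40, again without overlap in those 6 libraries. Hoxd8, on chromosome 2, had 353 UMIs in members and 2 UMIs in Rgs5-zero cells, a ratio of 73.0 relative to the total UMIs of each class, with an exact 95% interval of 20.1 to 605 for counting error only. Hoxb9 rose by 1.62 and Hoxc8 by 1.15, and these calls were lost without EC knockout 3 (adjusted p = 0.0596 and 0.0563).

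The differences were then sorted by paralogue group. In groups 1 to 3, 4 genes were tested and 0 changed, with log2 differences between -0.50 and -0.17. The 10 tested genes of groups 4 to 7 had values between -0.38 and 1.55, and the 8 of groups 8 to 13 between 0.07 (Hoxb8, which did not pass) and 5.59 (Hoxd8). Genes such as Hoxd8, Hoxa10 and Hoxc10, near 0 in Rgs5-zero cells, were tested because of their UMIs in the members, so how many of the tested genes rose says little about these groups, and the other genes of groups 8 to 13 had too few UMIs to be tested. Within the HoxC cluster the differences were 0.82 for Hoxc4, 1.55 for Hoxc5, 0.60 for Hoxc6, 1.15 for Hoxc8, 2.40 for Hoxc9 and 4.73 for Hoxc10. Hoxc6 did not pass the test (adjusted p = 0.083). The annotated span of Hoxc5 covers Hoxc6 to Hoxc9 and part of Hoxc10. All of them lie on the plus strand, so the count of Hoxc5 may hold reads of its neighbours even if counting used the strand. The call for Hoxc4 was lost without flox control 1, flox control 3, EC knockout 2 or EC knockout 3 (adjusted p 0.0559 to 0.12), and that for Hoxa7 (0.33) without any of 5 libraries (0.0586 to 0.218).

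**Figure D3:**
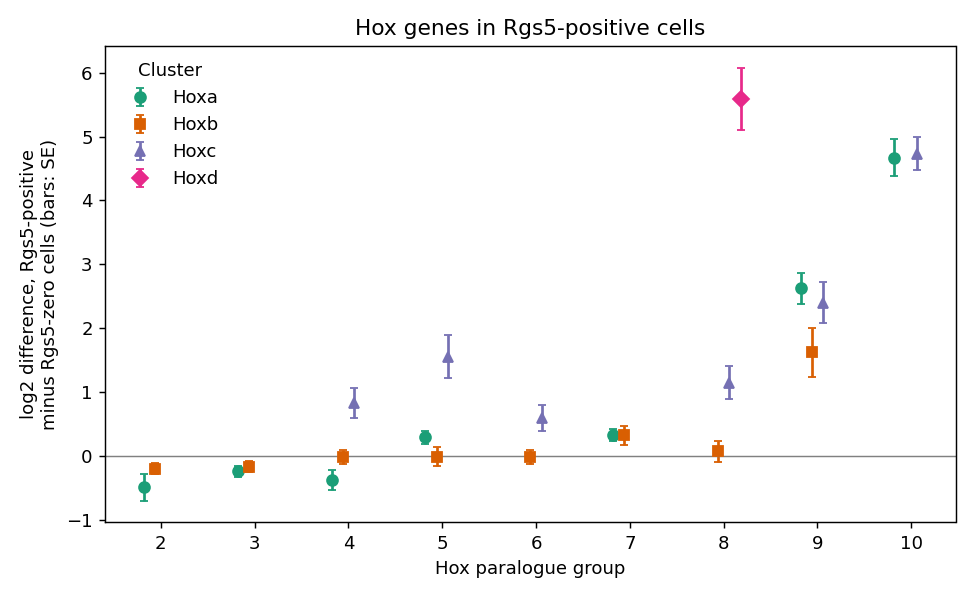
Fitted log2 difference between members and Rgs5-zero cells (y axis, bars are SE) for the 22 tested Hox genes, by paralogue group (x axis) and cluster (colour). The 4 genes of groups 1 to 3 lie between -0.50 and -0.17, and the genes of group 10 at 4.67 and 4.73; the fitted value of Hoxd8 rests on 2 UMIs in Rgs5-zero cells.

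The 6 genes of the list that fell code for transcription factors, among them Hand2 and Tbx20, known from the developing heart and great vessels. Hand2 stood at 3.59, 10.6 and 12.9 CPM in members of the controls and 2.56, 8.69, 4.43 and 35.2 CPM in those of the knockouts. In Rgs5-zero cells it was at 1.05, 35.7 and 56.5 CPM, and 2.90, 30.7, 13.3 and 88.3 CPM. It was lower in members of 6 of 7 libraries, the exception being flox control 1, and fell by 1.58 (SE 0.19, adjusted p = 2.8e-06). Tbx20 fell by 0.99, also in 6 of 7, with EC knockout 4 as the exception (123 CPM in members, 94.4 CPM in Rgs5-zero cells). Tbx2 fell by 1.23, Nkx2-3 by 1.79 and Meox2 by 1.19. Twist1 fell by 0.43, a call lost without flox control 2, flox control 3 or EC knockout 2 (adjusted p 0.0862 to 0.111). Msx2 rose (8.06 times its share of UMIs in Rgs5-zero cells, exact 95% interval 3.03 to 30.3 for counting error, from 78 and 4 UMIs), as did the mural transcription factor Tbx18 (0.30).

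The same genes were then read per cell. A UMI of any of the 16 Hox genes of groups 9 to 13, a set chosen after values were seen, was found in 29.1%, 16.7% and 25.3% of control members and in 31.3%, 23.8%, 16.2% and 0% of knockout members. In Rgs5-zero cells the shares were 4.98%, 2.00% and 1.008%, and 5.11%, 1.67%, 2.87% and 2.62%. Macrophage-gate cells, which should lack these transcripts, had 0% to 1.40%, and the Rgs5-zero shares of flox control 1 and EC knockout 1 lay furthest above that background. With every cell thinned to 1500 UMIs, the shares were 6.46% to 15.8% in members of the 6 larger libraries and 0.504% to 2.85% in Rgs5-zero cells. Of all 2047 gated cells with such a UMI, 1922 (93.9%) were members, by library 89.5% to 96.8% outside EC knockout 4, where 0 of 5 were. Members were 8054 of all 12836 gated cells, by library 51.02% to 80.1% outside EC knockout 4. Hoxa9, Hoxa10, Hoxb9, Hoxc9 and Hoxc10 of this set are genes that rose in the sums above. A higher share in members was therefore in part set by the choice of genes, and these shares add no separate support.

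The factors Hand2, Tbx20, Nkx2-3, Tbx1 and Tbx2 were read together in the same way. This set was not among the fixed lists. Hand2, Tbx20, Nkx2-3 and Tbx2 are genes that fell in the sums above, so a lower share in members was in part set by the choice of genes. A UMI of any of them was found in 4.10% to 8.98% of members and 9.61% to 22.0% of Rgs5-zero cells in the 6 larger libraries, and in 44.8% and 41.9% in EC knockout 4. Of the gated cells with such a UMI, 61.1%, 35.0% and 24.6% were members in the controls and 62.8%, 27.4%, 42.0% and 12.5% in the knockouts. The members' shares of all gated cells were 74.7%, 56.5% and 51.02%, and 80.1%, 52.2%, 61.7% and 12.4%, so the cells with these factors held fewer members than all gated cells in every library but EC knockout 4. EC knockout 4 therefore held the highest share of these factors in both classes and no group 9 to 13 Hox UMI in its members, while its fibroblast-gate cells had such a Hox UMI in 14.8% of cells, within the 13.6% to 24.01% of the other libraries. The share of quality-passing cells that passed the smooth muscle gate was 3.84% in EC knockout 4, against 15.9% to 32.7% in the other libraries. According to the design text, the part of the aorta taken did not differ between the genotypes, and which part it was is not given. Whether the part differed in this library was not tested.

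Of 23 tested genes for constrictor and other G protein coupled receptors, 4 rose and 2 fell, against 2.1% and 4.65% of all genes, with a median of -0.13. Ptger3, the EP3 receptor for prostaglandin E2, stood at 52.5, 32.7 and 62.2 CPM in control members and 38.9, 46.6, 27.9 and 0 CPM in knockout members, against 1.96 to 8.69 CPM in Rgs5-zero cells. The classes did not overlap outside EC knockout 4, and the rise was 2.67 (SE 0.17, adjusted p = 5.3e-11). Adra1a, the alpha-1A adrenoceptor, was at 5.83 to 26.9 CPM in members of the libraries other than EC knockout 4 and at 1.57 to 11.3 CPM in their Rgs5-zero cells (1.49, SE 0.23). In EC knockout 4 it went the other way, at 0 CPM in members and 12.2 CPM in Rgs5-zero cells. Calcrl, the receptor for calcitonin gene-related peptide and adrenomedullin, rose by 0.64. Agtr1b, an angiotensin II type 1 receptor, rose by 1.23 at a low level, 13.2 CPM at most, and lost the call without EC knockout 2 (0.90, adjusted p = 0.106).

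The receptors that fell were Npy1r, for the sympathetic cotransmitter neuropeptide Y, and F2rl1, the protease-activated receptor 2. Npy1r stood at 126, 172 and 220 CPM in members and 253, 280 and 338 CPM in Rgs5-zero cells, with no overlap, and fell by 0.70 (SE 0.06). F2rl1 had 20 UMIs in all members and 58 in the fewer Rgs5-zero cells, and fell by 2.40. Kit and Lepr, receptors for stem cell factor and leptin that lie outside the list and were picked after their values were seen, were higher by 3.19 (SE 0.22, 13.1 to 31.4 CPM against 0 to 4.88 CPM) and by 1.66 (SE 0.13, 6 of 7 libraries).

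Among the RGS genes themselves, 4 of 11 tested rose and 0 fell, against 2.1% and 4.65% of all genes, with a median of 0.15. Rgs4 stood at 147, 200 and 283 CPM in members and 122, 152 and 163 CPM in Rgs5-zero cells (0.43, SE 0.07), and was higher in 7 of 7 libraries. Rgs17 rose by 0.86, at 29.8 to 125 CPM in members of the 6 larger libraries against 9.76 to 61.0 CPM in their Rgs5-zero cells. In EC knockout 4 Rgs17 went the other way, at 0 CPM in members and 9.14 CPM, from 6 UMIs, in Rgs5-zero cells. Rgs1 (1.29) and Rgs7 (0.35) rose as well, each higher in 5 of 7 libraries. Each of these lost its call without flox control 2, flox control 3, EC knockout 1 or EC knockout 2, with adjusted p between 0.0595 and 0.0668 for Rgs1 and between 0.0702 and 0.177 for Rgs7. The list's count was 2 of 11 without flox control 2, flox control 3 or EC knockout 2. Of 32 genes for G protein subunits and effectors, 0 rose and 1, Gnao1 (-0.29), fell, no more than the 2.1% and 4.65% of all genes. Without EC knockout 4, 2 rose and 1 fell, and without EC knockout 3, 1 and 1.

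Of 32 contractile genes tested, 2 rose and 2 fell, near the 2.1% and 4.65% of all genes, with a median of 0.05. Des, the intermediate filament protein desmin, stood at 76.6, 71.0 and 111 CPM in control members and 148, 79.1, 39.4 and 26.4 CPM in knockout members, against 33.1 to 51.4 CPM in Rgs5-zero cells. It was higher in 6 of 7 libraries and rose by 0.97 (SE 0.12, adjusted p = 5.1e-06). Actn1 (alpha-actinin) rose by 0.12, a call lost without any library except EC knockout 4 (adjusted p 0.0759 to 0.124). The caveolar protein Cav1 fell by 0.31 and Filip1l by 0.26. Without EC knockout 4 the count was 8 rises and 2 falls: Cald1 (0.15), Tpm2 (0.15), Ppp1r12b (0.13), Myl9 (0.12), Tpm1 (0.10) and Myl6 (0.09) then passed, all by small amounts.

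Of 30 tested genes for ion channels and calcium handling, 4 rose and 4 fell, against 2.1% and 4.65% of all genes. Kcnj8, the pore of the vascular ATP-sensitive potassium channel, stood at 19.97, 24.4 and 38.6 CPM in members and 11.8, 15.8 and 19.6 CPM in Rgs5-zero cells, with no overlap (0.75, SE 0.12). Its sulfonylurea receptor partner Abcc9 rose by 0.21, a call lost without flox control 2 or EC knockout 1 (adjusted p = 0.0781 and 0.124). Kcnma1, the large-conductance calcium-activated potassium channel, rose by 0.26, and Cacna2d1 by 0.15, the latter lost without any of 4 libraries (0.0784 to 0.148). Pln, phospholamban, the inhibitor of the calcium pump of the sarcoplasmic reticulum, stood at 5.94, 8.61 and 11.8 CPM in members and 26.3, 66.3 and 126 CPM in Rgs5-zero cells. The classes did not overlap, and Pln fell by 2.74 (SE 0.16, adjusted p = 4.0e-11). Cacna1h, a T-type calcium channel, fell by 2.15, the calcium release channel Ryr2 by 0.22 and the calcium pump Atp2b4 by 0.15. The calls for Ryr2 and Atp2b4 were each lost without any of 5 libraries (adjusted p 0.0551 to 0.135 and 0.0526 to 0.109). Without flox control 2 the list held 2 rises and 2 falls, without flox control 1 it held 4 and 2, and without EC knockout 1 or EC knockout 3 it held 3 and 2.

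In the list of mural and pericyte genes, 2 of 19 rose (Kcnj8 and Abcc9) and 4 fell: Notch3, Art3 (-0.47), Ndufa4l2 (-1.09) and Nrip2. The list's median was -0.24. For this list and the next ones, the shares over all genes were 2.1% that rose and 4.65% that fell. Ndufa4l2 lost its call without any library except EC knockout 4 (adjusted p 0.0588 to 0.154). Without EC knockout 1 the count was 1 rise and 2 falls, without EC knockout 2 it was 2 and 2, and without flox control 2 it was 1 and 3. Notch3, the receptor that maintains arterial mural cells, stood at 37.6, 55.1 and 106 CPM in members and 66.3, 106 and 206 CPM in Rgs5-zero cells, and fell by 1.09 (SE 0.10) in 7 of 7 libraries. In the Notch list 0 of 16 rose and 5 fell, the others being its ligand Jag1 (-0.56), its target Nrarp (-2.11), Notch1 (-0.90) and Nrip2 (-2.33, 22 UMIs in all members), with a median of -0.19. Of 13 genes for nitric oxide and cyclic GMP, the clearance receptor Npr3 rose (0.55) and Pde1a (-0.55) and the guanylate cyclase subunit Gucy1a1 (-0.30) fell. The call for Npr3 was lost without flox control 2, flox control 3 or EC knockout 1 (0.0531 to 0.083).

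Genes of modulated smooth muscle cells, which have left the contractile state, went both ways: 4 of 24 rose and 11 fell (median -0.44), and with DESeq2 3 rose and 6 fell. Fn1, Vcan and Col3a1 (0.22) rose with Ogn (0.19), whose call was lost without any of 5 libraries (adjusted p 0.0518 to 0.144). Among those that fell were Dcn (-0.67), Ly6a (-0.72), Lgals3 (-0.80) and Klf4 (-0.59). Of 36 genes of elastic fibres and basement membrane, Ltbp1, which holds latent TGF-beta in the matrix, rose by 0.27 without overlap, at 555 to 677 CPM against 402 to 553 CPM. Fbln2 (-0.82), Itga5 (-0.35), Fbln1 (-0.40), Col15a1 (-0.32) and Nid1 (-0.27) fell. Fbln1 lost its call without flox control 1 or flox control 3 (adjusted p = 0.0585 to 0.074), and Nid1 without any of 5 libraries (0.0536 to 0.264). The 1 rise among these 36 genes was near the 2.1% of all genes that rose, beside 4.65% that fell. The count of 1 rise and 5 falls became 1 and 8 without EC knockout 4, 3 and 4 without flox control 1, and 1 and 3 without flox control 3. Outside these lists, the leading falls included Aspn, a small proteoglycan of the matrix, at 76.2, 99.6 and 185 CPM in members and 150, 217 and 283 CPM in Rgs5-zero cells. Aspn (-1.10), Sncg (-1.85), Olfml2a (-1.18) and the insulin-like growth factor binding proteins Igfbp2 (-1.60) and Igfbp4 (-0.90) were lower in 7 of 7 libraries.

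Immediate early and heat shock genes, which respond within minutes to stress, tissue digestion included, were lower in members. Of 32 tested, 0 rose and 21 fell, against 2.1% and 4.65% of all genes, with a median of -0.27. DESeq2 called 12 of them, and 14 fell without flox control 2. Klf4 stood at 237, 316 and 608 CPM in members and 367, 542 and 722 CPM in Rgs5-zero cells. Myc fell by 0.80, Nr4a2 by 0.63 and the chaperone gene Hspa1b by 0.61. The list's summed level ranged from 12630 to 19600 unscaled CPM in members and from 14240 to 21350 in Rgs5-zero cells, and was higher in members of 2 of 7 libraries. The inflammatory genes Il6 (-1.22) and Ptgs2 (-0.87), the cyclooxygenase that makes prostaglandins, fell too. The part of digestion in these differences was not tested.

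Of 18 hypoxia genes, 1 rose (Ndrg1, 0.33) and 3 fell: Epas1 (-0.59), Hif1a (-0.23) and Ldha (-0.21). Over all genes 2.1% rose and 4.65% fell, and so few calls in a short list say little about the list. Hif1a and Ldha each lost the call without any of 4 libraries (adjusted p 0.0625 to 0.152 and 0.0572 to 0.0822). Without EC knockout 1 or EC knockout 3, 1 rose and 1 fell. Of 12 genes of lipid handling, 1 rose and 1, lipoprotein lipase (Lpl), fell by 0.90. Of 15 amino acid transporter genes, the glutamine transporter Slc38a1 stood at 52.5 to 89.3 CPM in members of the 6 larger libraries and 24.5 to 49.3 CPM in their Rgs5-zero cells, and rose by 0.91 (SE 0.09). Its relative Slc38a2 fell by 0.17 and Slc3a2 by 0.31. Slc38a2 lost its call without EC knockout 1 or any control (adjusted p 0.0568 to 0.0962), and Slc3a2 without any of 4 libraries (0.072 to 0.116).

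Markers of other cell types moved with the comparison and are given as measured, beside the 2.1% and 4.65% of all genes that rose and fell. Of 14 fibroblast genes, 0 rose and 10 fell (median -0.61; 6 with DESeq2), and the list's summed level was 3299 to 5184 unscaled CPM in members and 3583 to 7295 in Rgs5-zero cells, lower in members of 6 of 7 libraries. Dcn, Ly6a and Lum, which fell, belong to this list as well as to that of modulated cells. Fmod, Col1a1 and Col1a2 are also in both lists, so the counts of the lists are not independent. Lum (-0.61) lost its call without any of 4 libraries (adjusted p 0.0582 to 0.119). Of 4 endothelial genes tested, 3 fell, Esam (-1.04), Cytl1 (-1.65) and Plvap (-0.61), with a sum of 43.6 to 76.8 against 77.6 to 137. Plvap lost its call without EC knockout 3, flox control 2 or flox control 3 (adjusted p 0.0704 to 0.252), and Cytl1 had a smaller difference, -0.91, without EC knockout 1. Cytl1 belongs to the list of modulated cells too, so its fall is not particular to endothelial genes. Of 5 erythroid genes, all 5 fell: the sum was 18.4 to 754 in members and 134 to 6773 in Rgs5-zero cells, highest in EC knockout 4 for both. Hba-a1 (-3.73) and Hbb-bs (-3.48) have near-identical copies, so the split of their counts is uncertain. Of 12 macrophage genes, 0 changed (up to 5 fell under the alternatives), with 25.8 to 315 in members and 20.03 to 862 in Rgs5-zero cells. Flox control 1 held the highest macrophage sum in both classes. Of 4 Schwann cell genes tested, 2 fell, among them Mbp (-1.94), with a summed level of up to 31.7 in members and up to 328 in Rgs5-zero cells. Mbp stood at 5.38 CPM in members and 66.3 CPM in Rgs5-zero cells of flox control 1, against at most 1.83 CPM in either class elsewhere, and was higher in members of 5 of the other 6 libraries. With DESeq2 it had the other sign (0.18) and did not pass, and its call was lost without EC knockout 4 (adjusted p = 0.0539), while without flox control 1 it had too few UMIs to be tested. DESeq2 called 0 of the 4, and without flox control 1 the list held 1 tested gene, S100b, which then rose. Of 3 cardiac and skeletal muscle genes, 0 changed, and no lymphocyte or adipocyte gene was tested. The part of these cells or of their free RNA in the falls was not tested.

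Members varied among themselves with their Rgs5 count. In the 6 libraries other than EC knockout 4, sums over cells with 0, 1, 2 to 4, 5 to 19, and 20 or more Rgs5 UMIs were compared as unscaled CPM. Bche was at 14.2 ± 6.8, 18.8 ± 5.9, 21.9 ± 3.8, 41.6 ± 8.9 and 85.8 ± 14.4 (SD, n = 6 libraries) in these strata. Hoxc10 was at 1.03 ± 0.77, 1.37 ± 1.24, 2.67 ± 1.66, 9.12 ± 4.22 and 66.1 ± 24.4. Both genes were thus highest in the members with the most Rgs5. Cells with 2 to 4 Rgs5 UMIs had means above those of the Rgs5-zero cells, but nearer to them than to cells with 20 or more.

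Fn1 and Des shared that shape. Fn1 was at 1012 ± 83.7 in Rgs5-zero cells, 1197 ± 61.7 at 2 to 4 Rgs5 UMIs and 2905 ± 556 at 20 or more, and Des at 33.5 ± 7.4, 33.8 ± 13.8 and 99.1 ± 34.3. Genes lower in members had another shape. Pln was at 53.4 ± 32.9 in Rgs5-zero cells, 32.6 ± 26.5 at 1 Rgs5 UMI and 10.1 ± 8.9 at 2 to 4, and 6.04 ± 2.21 at 20 or more. Notch3 went from 86.8 ± 30.8 to 54.1 ± 15.3 at 1 Rgs5 UMI and 37.3 ± 9.4 at 2 to 4, and stood at 41.8 ± 11.6 at 20 or more. It was thus already lower in cells with 1 UMI, which are not members. Aspn was lower in each higher stratum, from 171 ± 30.9 in Rgs5-zero cells through 104 ± 13.3 at 2 to 4 UMIs and 84.2 ± 10.3 at 5 to 19 to 58.2 ± 10.2. Ppp1r14a was at 381 ± 60.8 in Rgs5-zero cells and 395 ± 74.5 at 20 or more. The strata come from the same libraries, and no test was made.

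**Figure D4:**
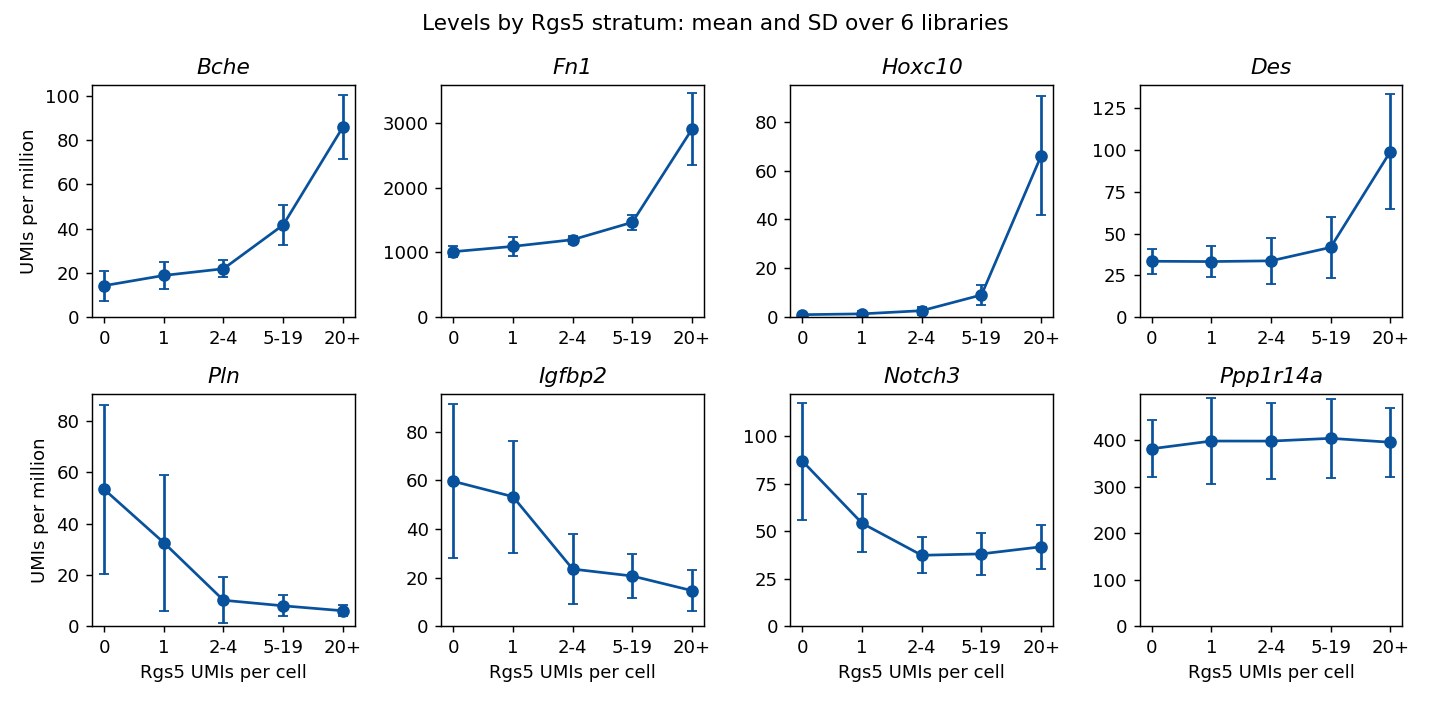
Level of 8 genes (unscaled CPM, y axes starting at 0) in gated smooth muscle cells by their number of Rgs5 UMIs (x axis); points are means and bars SD over the 6 libraries other than EC knockout 4. Bche, Fn1, Hoxc10 and Des are highest at 20 or more Rgs5 UMIs. Pln and Notch3 are lower already at 1 UMI, Igfbp2 mainly from 2 UMIs on, and Ppp1r14a is level.

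The share of gated cells that were members was compared between genotypes, to ask whether endothelial loss of Slc38a2 went with a different number of Rgs5-positive cells. It was 74.7%, 56.5% and 51.02% in the controls and 80.1%, 52.2%, 61.7% and 12.4% in the knockouts. Exact (Clopper-Pearson) 95% intervals reached from 8.46% to 17.3% in EC knockout 4 and, in the control with the fewest gated cells, from 48.5% to 53.6%. They cover counting error only. The means were 60.7 ± 12.4% (SD, n = 3) and 51.6 ± 28.6% (SD, n = 4), a difference of -9.13 percentage points (two-sided exact permutation test, p = 0.8, smallest possible p = 0.0286). The groups overlapped, and without EC knockout 4 the difference was 3.94 points in the other direction (exact permutation test, p = 0.6, smallest possible p = 0.1). No difference between genotypes was thus detected, and the size that these libraries could show was not measured.

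**Figure D5:**
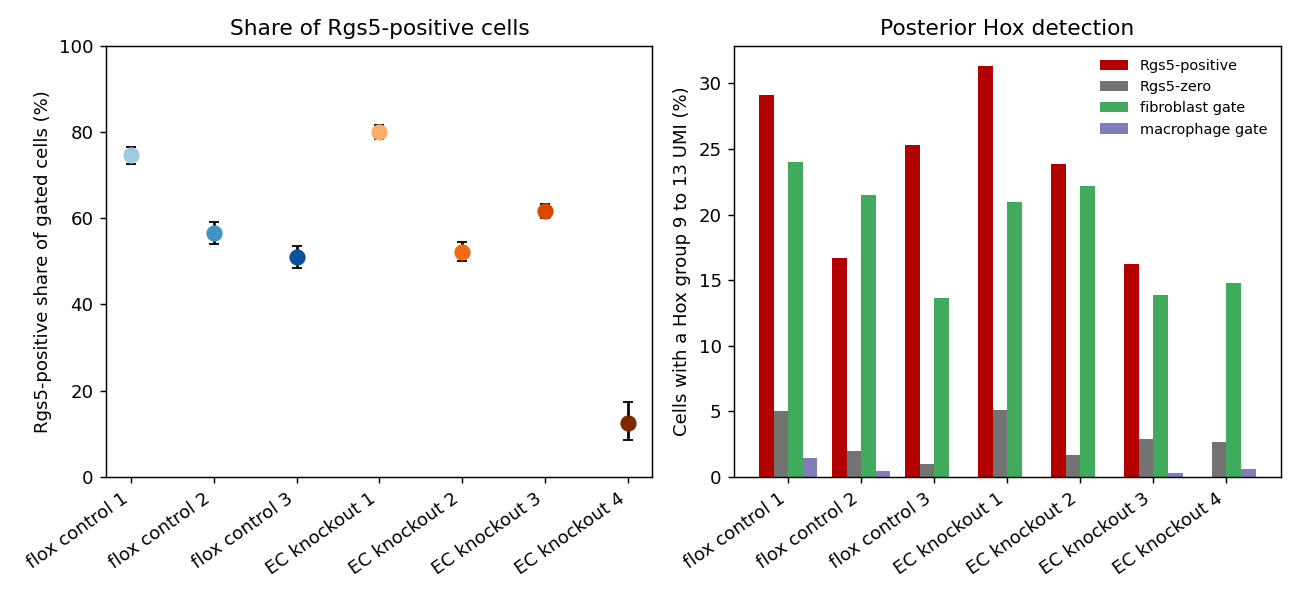
Left, members as a share of gated smooth muscle cells (percent) in each of the 7 libraries, with exact 95% intervals; right, share of cells (percent) with a UMI of any Hox gene of groups 9 to 13 in members, Rgs5-zero, fibroblast-gate and macrophage-gate cells. EC knockout 4 is lowest on the left, at 12.4%, and is the library on the right in which no member has such a UMI.

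The level of Rgs5 over all gated cells, which does not depend on the cutoff of 2 UMIs, was highest in EC knockout 1 and flox control 1 and lowest in EC knockout 4, as the share was, while the other 4 libraries had another order. It was 7777, 4194 and 5231 CPM in the controls and 7945, 4080, 3456 and 305 CPM in the knockouts. The log2 difference was -0.54 (SE 0.71, adjusted p = 0.96), and it was -0.15 without EC knockout 4 and -0.25 without flox control 1. In sums over cells, fewer Rgs5-positive cells and less Rgs5 per cell cannot be told apart. Read per cell, EC knockout 4 had both the lowest share of members, 12.4%, and the lowest median within members, 5 Rgs5 UMIs.

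Within the members, of 11261 genes tested, 2 were higher in the knockouts and 0 lower at an adjusted p under 0.05 (0.0178%), and 548 had an unadjusted p under 0.05, where evenly spread p-values would give 563. DESeq2 called 3. Neither of the genes called stood at the level required for naming, and each was at 0 UMIs in EC knockout 4, so the groups overlapped. AC154200.1, on chromosome 17, stood at 1.83, 0.64 and 1.53 CPM in the controls and 14.1, 17.0 and 15.4 CPM in EC knockout 1 to 3 (log2 difference 3.40, SE 0.38, adjusted p = 0.0092). Palb2, a partner of BRCA2 in DNA repair on chromosome 7, stood at 0.91, 2.56 and 0.51 CPM against 10.5, 13.9 and 13.9 CPM (3.18, SE 0.44, adjusted p = 0.0401). Palb2 lost its call without flox control 1, EC knockout 2 or EC knockout 4 (adjusted p = 0.238, 0.286 and 0.0778). Without EC knockout 1 or EC knockout 3 it had too few UMIs to be tested, and so had AC154200.1 without any of EC knockout 1 to 3. The count was 0 without EC knockout 1, EC knockout 2 or EC knockout 3, and 27 and 9 without flox control 2 and flox control 3. In Rgs5-zero cells, where 0 of 9684 genes passed and 412 had an unadjusted p under 0.05, the differences were 2.48 for AC154200.1 and 3.16 for Palb2, and the interaction with class did not pass for either.

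No gene passed the rule for naming here, so the 10 with the smallest p at that level are given as values that did not pass. Cpeb1, a regulator of translation, stood at 31.3, 30.4 and 37.2 CPM in the controls and 71.8, 69.2, 109 and 44.2 CPM in the knockouts, without overlap (log2 difference 1.32, SE 0.20, adjusted p = 0.0814). It passed with DESeq2 (adjusted p = 0.0204) and, in edgeR, with the replicate block (adjusted p = 0.00805) and without the filter on low counts (adjusted p = 1.71e-06). Rrm2b (0.75) and Traf5 (0.70) were also higher in every knockout than in every control, and Cmss1 (-1.46), Camk1d (-1.03) and the bicarbonate cotransporter Slc4a4 (-0.78) lower. The values of EC knockout 4 came from 5 UMIs for Cpeb1, 10 for Rrm2b, 7 for Traf5 and 11 for Cmss1. Camk1d and Slc4a4 had 4 UMIs each there. How often the groups separate in this way over all genes was not counted. Cmss1 stood at 536, 517 and 189 CPM in the controls and 164, 147, 161 and 97.3 CPM in the knockouts. Its annotated span holds Filip1l on the other strand, and whether counting used the strand is not given. Without flox control 3, Cmss1 and Camk1d passed (adjusted p = 0.000964 and 0.0334).

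The last 4 were the chemokine Ccl2 (-1.14) and the genes Smoc2 (-1.27), Serpinf1 (-1.50) and Gfpt2 (-1.26), whose groups overlapped. Without flox control 2, Ccl2, Smoc2 and Serpinf1 passed (adjusted p 0.0104 to 0.0258). Most of the 10 had a like difference in Rgs5-zero cells, also not past the test: 1.08 for Cpeb1, 0.57 for Rrm2b and for Traf5, -1.54 for Cmss1, -1.08 for Camk1d, -0.76 for Slc4a4, -1.32 for Smoc2 and -1.45 for Serpinf1. The values were -0.74 for Gfpt2 and -0.04 for Ccl2, and the interaction with class did not pass for any of the 10. Serpinf1 stood at 107, 27.5 and 57.5 CPM in the controls and 25.2, 23.5, 18.4 and 53.1 CPM in the knockouts. It is a member of the fibroblast list, of which 0 of 14 passed and 10 had an unadjusted p under 0.05, with a median of -1.36 beside -0.02 for all genes. The summed level of that list in members was highest in flox control 1 (5184 unscaled CPM) and lay between 3299 and 4305 elsewhere. Flox control 1 also had the largest shares of fibroblast-gate and macrophage-gate cells with at least 2 Rgs5 UMIs. The part of free fibroblast RNA in these differences was not tested. Of the 32 contractile genes 0 passed, with a median of -0.02, and of the 11 RGS genes 0 passed, with a median of -0.05.

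The genotype difference in members was set against that in Rgs5-zero cells by an interaction term. Of 11492 genes, 2 passed (0.0174%), both lower in the members of the knockouts than their Rgs5-zero cells would give, and 443 had an unadjusted p under 0.05, where evenly spread p-values would give 575. DESeq2 called 0, and so did the fits without flox control 3 or without EC knockout 4. Cxcl1, a neutrophil-attracting chemokine, stood at 119, 33.9 and 302 CPM in control members and 45.6, 91.4, 89.9 and 61.7 CPM in knockout members. In Rgs5-zero cells it stood at 219, 64.6 and 241 CPM in the controls and 133, 270, 247 and 241 CPM in the knockouts. The difference of the log2 differences was -1.16 (SE 0.19, adjusted p = 0.0148). Without flox control 3 it was -0.63 (adjusted p = 0.385), and without EC knockout 4 -1.15 (adjusted p = 0.207).

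Il6 stood at 46.1, 9.96 and 61.7 CPM in control members and 7.30, 21.3, 18.5 and 8.81 CPM in knockout members, the last from 1 UMI. In Rgs5-zero cells it stood at 69.4, 10.8 and 77.4 CPM, and 47.1, 85.4, 46.7 and 12.2 CPM. Members were the lower class in every library. The interaction was -1.45 (SE 0.24, adjusted p = 0.0148), and it was lost without any control, EC knockout 2 or EC knockout 4 (adjusted p 0.0516 to 0.385). The genotype difference within either class alone did not pass for either gene: -0.99 and 0.36 for Cxcl1, and -1.35 and 0.05 for Il6, in members and Rgs5-zero cells.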

How the data were processed

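UMI counts per gene and barcode were deposited by the authors for 7 aortic libraries. Reads were handled with CASAVA 1.8, STARsolo 2.7.10a and Seurat against mm10, per the submitters' processing notes; how barcodes were chosen and whether counting used the strand is not stated there. Libraries held 6167 to 13792 barcodes and 22646246 to 73102988 UMIs over 31253 genes, of which 31107 matched the GENCODE annotation of GRCm38 by Ensembl gene identifier. All columns of per-sample values were used.

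The members and gene lists were chosen with earlier results of these data known. Counts were summed per library and class, and gate genes and mitochondrially encoded genes were left out. Classes with at least 20 cells were tested with edgeR 4.0.16 (quasi-likelihood, TMM, filterByExpr, Benjamini-Hochberg adjusted p under 0.05) in R 4.3.3, with the library as a block in the comparison of classes and in the interaction. Every adjusted p in the text comes from this test unless DESeq2 1.42.0 is named. Shares were compared by an exact permutation test. Doublets were left in, and Scrublet (scanpy 1.11.5) marked 2 to 22 members per library, which an alternative left out.

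Named genes were the 12 largest rises and falls among called genes averaging 5 log2 CPM or more, 1 direction in every library, and no predicted, ribosomal or gate genes. For genotype the same rule asked for 10 each way without overlap, or else the 10 with the smallest p. Up to 4 members of each list were named by p, with further called members where few were called; Hoxa10, Kit and Lepr were chosen after their values were seen. A few genes that these rules name are not reported here. Alternatives were DESeq2, RLE factors, no filter on low counts, 3 Rgs5 UMIs, 3000 UMIs per cell, no Scrublet calls, Rgs5-zero cells matched on UMIs, thinning to 1500 UMIs, a replicate block, each library left out and, added after seeing the data, 20 Rgs5 UMIs. On simulated counts with 200 changed genes among 11492, the comparison of classes called 93.1% of genes changed by a fold of 2, with 4.35% of calls false. For genotype in members, 200 of 11261, it called 70.0%, with 20.3% false, and for the interaction 67.7%, with 13.6% false. The changed genes had folds of 1.5, 2 or 4, and the false shares are over all folds. At a fold of 1.5 the shares called were 73.7%, 6.25% and 32.1%. Those counts were drawn with gene-wise dispersions. With trended ones the shares called at a fold of 2 were 94.4%, 72.3% and 49.3%, with 3.17%, 5.04% and 1.83% false. At a fold of 1.5 they were 82.8%, 12% and 32.9%.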

Additional observations from a re-analysis of the deposited data

Results flagged for a closer look

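Among 46 values tested in the 4 EC knockout libraries, 2 had 1 library far from the others, where chance marks about 1 in 20. The log2 ratio of Hoxc9 in members to Rgs5-zero cells was 0.0 in EC knockout 4 and 1.65 to 1.96 in the other 3; EC knockout 4 had no Hoxc9 UMI in either class. Gfpt2 in members stood at 53.1 CPM in EC knockout 4 and 23.3 to 25.3 CPM in the other 3.

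The genotype difference differed between members and Rgs5-zero cells, by the interaction term, for Cxcl1 (-1.155) and Il6 (-1.447).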

How the results depend on the processing

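Between members and Rgs5-zero cells, 775 genes passed, 572 to 861 with 1 library left out and 453 with cells thinned to 1500 UMIs, where fewer genes could be tested. Of 104 called genes named, 71 kept call and sign under every alternative in which they were tested (9 to 16 alternatives a gene), 18 lost the call under thinning and 15 under DESeq2; 1, Mbp, reversed with DESeq2 (0.1765). Genotype within members gave 2 genes: 107 without the filter on low counts, 1 with 3000 UMIs per cell, 4 with thinning, 1 with 20 Rgs5 UMIs, and 0 to 27 with 1 library left out. The replicate block gave 9; in it flox control 2 was numbered from its name, since its label gives replicate 1, as that of flox control 1 does. Same-numbered libraries had correlations of 0.114, 0.0615 and -0.00752, and the other pairs of a control and a knockout had -0.125 to 0.0904. Such small correlations cannot show whether same-numbered libraries were handled together. Slc38a2 by genotype in members changed sign with 20 Rgs5 UMIs (0.04543) and ranged from -0.2805 to 0.1166 with 1 library left out, the last without flox control 3. The interaction gave 2 genes: 0 with DESeq2, 13 without the filter, 0 with 3000 UMIs per cell, and 0 to 4 with 1 library left out. The Rgs5 level by genotype was -1.13 to -0.15 with 1 library left out and -0.19 with the replicate block. The difference in share was -18.63 to 3.943 points with 1 library left out, the last without EC knockout 4. For the changes whose cause is not named, the cause was not tested. EC knockout 4 had too few members for the fits with 3000 UMIs per cell and with 20 Rgs5 UMIs, which used 6 libraries, and its 29 members limit every value from it.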
